A study of Mus musculus with 6 samples.

Results

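Genes of glycolysis, the pentose phosphate pathway and the response to low oxygen were examined after knockdown of Gch1 in BV2, an immortal line of mouse microglia. The members are 42 genes listed by function: glucose and lactate transporters, glycolytic enzymes, pentose phosphate enzymes, a kinase and a subunit of pyruvate dehydrogenase control, and HIF (hypoxia-inducible factor) with its sensors and targets. Of the 42 genes, 41 had a row among the 12327 rows of the deposited table and Ldhb was not analysed here. Aldoa was present under 2 identifiers, which gave 42 rows. All 42 rows passed the filter on low values that left 12222 rows for testing.

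RNA was sequenced from 3 GCH1-KD libraries and 3 negative controls. Knockdown was by adenoviral delivery of a short hairpin against GCH1 (Ad-shGCH1), and the knockdown cells were taken at 48 hours. No such time was recorded for the controls. The other cells are named Ad-NC in one label and wild type in another, so whether they received a virus is not known from the labels. All cells came from the same line and grew in high-glucose medium with fetal bovine serum. GCH1 is GTP cyclohydrolase I, the first enzyme in the synthesis of tetrahydrobiopterin, a cofactor of nitric oxide synthases. Nothing in the labels ties replicate libraries to separate cultures, so p-values reflect only the spread among libraries, which may be technical.

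Glycolysis splits glucose into pyruvate, which is either reduced to lactate or passed into mitochondria, and the pentose phosphate pathway diverts glucose phosphate to make NADPH and ribose. HIF is destroyed when prolyl hydroxylases modify its alpha subunit in the presence of oxygen, and it raises many glycolytic genes when they cannot. Microglia and macrophages raise glycolysis on inflammatory activation, and both nitric oxide synthesis and the recycling of tetrahydrobiopterin use NADPH.

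Values are FPKM, fragments scaled to transcript length and library size, so levels can be compared between genes. Library sums were 224291 to 230292 FPKM. The estimated aligned sequence was 5.25 to 5.58 Gb (gigabases) in the controls and 6.32 to 7.61 Gb in the knockdown libraries, which do not overlap, and the part of this gap in the results was not tested. Gch1 stood at 6.89, 7.22 and 7.23 FPKM in the control libraries against 3.20, 2.93 and 3.43 FPKM in the knockdown libraries, so the targeted gene fell as labelled (log2 fold change −0.96, limma, Benjamini-Hochberg adjusted p = 0.00542). Of 15 microglial and macrophage markers 13 were measured, with sums of 1175 to 1195 FPKM in the control libraries against 1121 to 1188 FPKM in the knockdown libraries, which overlap. Of these, 4 were above control and 9 below, and 0 were called. Cd68 (means of 486 and 457 FPKM) and Trem2 (22.2 and 21.6 FPKM) were lower in every knockdown library, as were 8.36% of all genes. Aif1 had means of 1.99 and 2.53 FPKM, with overlap. Itgam ran from 7.22 to 31.1 FPKM among the controls. The part of these markers in the results was not tested. P2ry12 and C1qa had no value here, and Tmem119, a marker of resident microglia, stood at only 0.489 to 0.689 FPKM. Of 7 astrocyte markers only Aldoc, itself a member, was measured, and the neuronal, oligodendrocyte and lymphocyte lists had 0 measured genes. Of 7 fibroblast and mural markers only Acta2 was measured, at 0.394 to 0.650 FPKM. Of 6 endothelial markers 2 were measured: Flt1, which macrophages also express, at 21.3 to 23.5 FPKM, and Vwf at 4.269 to 4.715 FPKM in the controls and 4.723 to 5.299 FPKM after knockdown. Vwf was higher in every knockdown library (limma, Benjamini-Hochberg adjusted p = 0.487), and its part in the results was not tested.

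The measured RNA of these pathways lay close to its control level after Gch1 knockdown. None of the 42 rows passed the test (limma on log2(FPKM + 1), called at a Benjamini-Hochberg adjusted p under 0.05 over all 12222 rows), with adjusted p between 0.283 for Hk3 and 0.971 for Pfkfb4. Over all genes 10 were called, which is 0.0818% of those tested. The members together summed to 2254 ± 24.2 FPKM in the control libraries against 2230 ± 20.8 FPKM in the knockdown libraries (mean ± SD of 3 libraries each), and in each library they took between 0.960% and 0.993% of the summed FPKM.

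Fold changes are given as log2, knockdown minus control. They ran from −0.46 for Pfkfb3 to 0.18 for Bnip3l, with 18 rows above control and 24 below. The median was −0.01, beside 0.01 over all genes tested. Without its sign, the median size was 0.048, beside 0.065 over all genes and 0.058 over genes with a mean of at least 5 FPKM. In 39 of 42 rows (92.9%) the fold change lay within 0.2 of 0, beside 91.2% of all genes. The 95% interval lay within 0.25 of 0 in 30 rows. There it limits a difference between these libraries to less than 18.9% up or 15.9% down on the log2(FPKM + 1) scale. The interval lay within 0.5 of 0 in every row but those of Pfkfb3 and Rpe. Like the p-values, the intervals reflect only the spread among libraries, which may be technical.

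At an unadjusted p under 0.05 there were 5 of 42 rows (11.9%), against 11.3% of all genes. Hk1, Hk3 and Pfkfb3 were on the lower side, and Hk2 and Pdk1 on the higher side. The control and knockdown values did not overlap in 9 of 42 rows (21.4%), against 18.4% of all genes. Every knockdown library was above every control in 4 of them (Hk2, Pgk1, Ldha and Pdk1), where 9.99% of all genes did so. Every knockdown library was below every control in the other 5 (Hk1, Hk3, Pfkfb3, Aldoa and Pdha1), where 8.36% of all genes did so. These shares are near those of the whole table. Without control 1 the count at an unadjusted p under 0.05 was 3, when 8.74% of all genes had one. Without control 2 it was 9, when 13.6% of all genes had one. There 21 rows (50%) had groups apart, when 34% of all genes did.

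**Figure D1:**
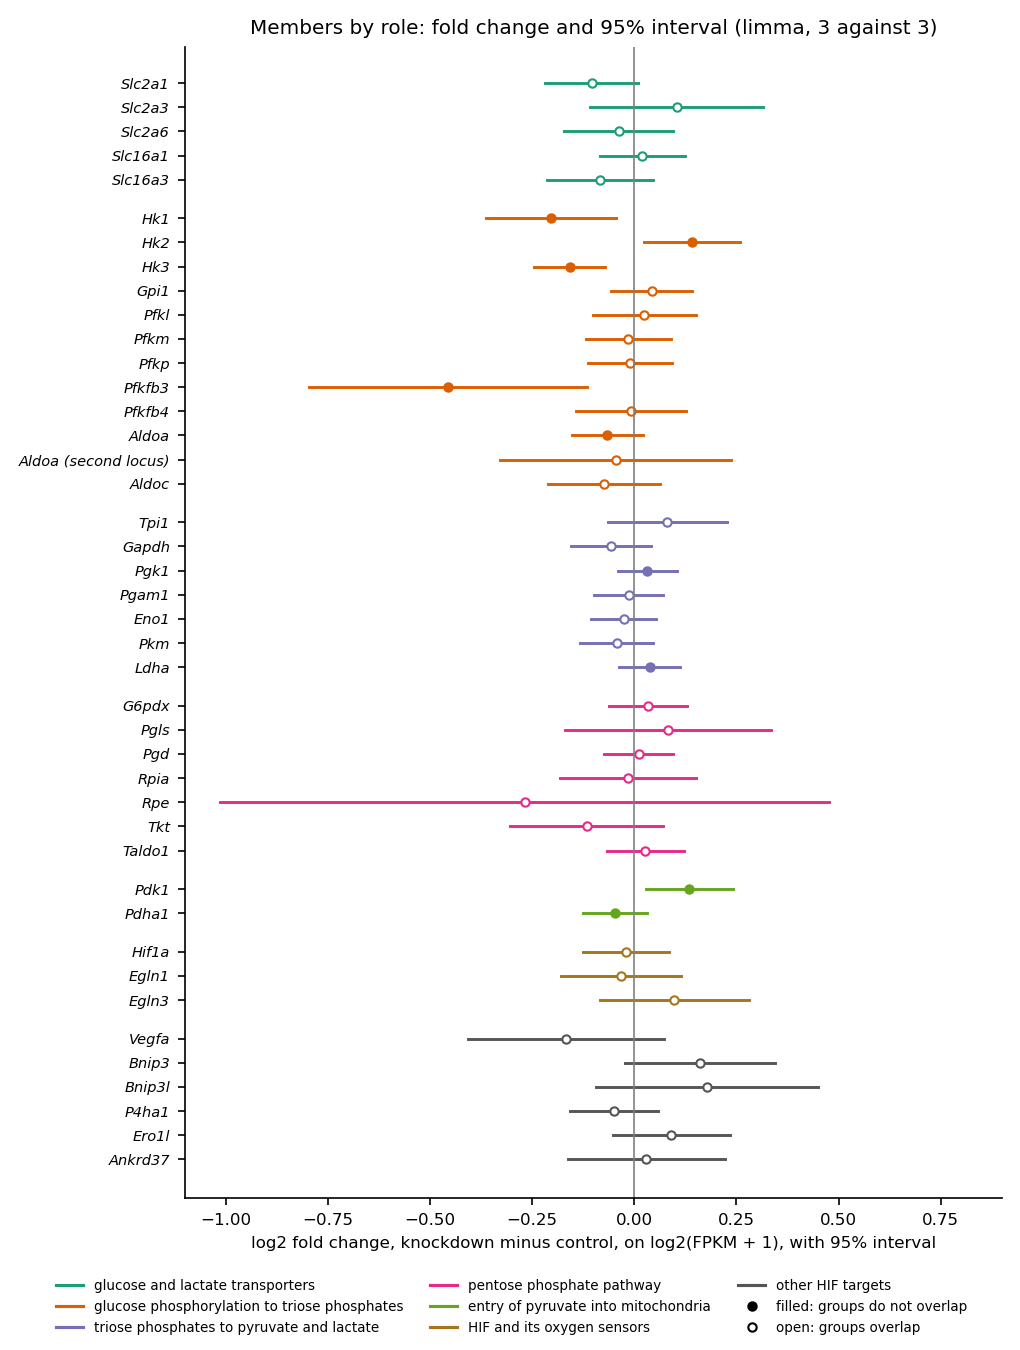
Log2 fold change of each member (x axis, knockdown minus control on log2(FPKM + 1)), with its 95% interval from limma, by role. Filled points mark the 9 rows whose groups do not overlap. Most points lie within 0.2 of 0, and the intervals of Rpe and Pfkfb3 are the widest.

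The promoters of 4 of these 9 members are shown because HIF binds the core ACGTG or GCGTG, and the bases before their start sites differ in how many copies of it they hold. Sequences are the 250 bases before the outermost RefSeq start site (GRCm38.p6), written 5′ to 3′ on the gene's strand. Capitals mark ACGTG or GCGTG on either strand, so CACGT and CACGC are capitals too. Hk3 lies at chr13:55021386-55021635 (minus strand), Hk2 at chr6:82774455-82774704 (minus), Ldha at chr7:46845554-46845803 (plus) and Pdk1 at chr2:71872974-71873223 (plus). Each window is free of GENCODE M21 exons, and that of Ldha lies inside a longer gene model.
Hk3: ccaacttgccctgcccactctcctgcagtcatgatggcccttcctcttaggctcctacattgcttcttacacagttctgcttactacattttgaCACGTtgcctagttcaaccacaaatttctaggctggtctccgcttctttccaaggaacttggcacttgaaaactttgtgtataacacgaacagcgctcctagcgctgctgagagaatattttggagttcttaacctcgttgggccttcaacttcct
Hk2: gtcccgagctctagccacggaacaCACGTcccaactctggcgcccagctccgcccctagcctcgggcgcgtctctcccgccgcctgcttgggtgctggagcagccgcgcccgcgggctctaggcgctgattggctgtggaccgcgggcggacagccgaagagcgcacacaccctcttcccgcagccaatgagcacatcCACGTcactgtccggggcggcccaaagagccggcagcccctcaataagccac
Ldha: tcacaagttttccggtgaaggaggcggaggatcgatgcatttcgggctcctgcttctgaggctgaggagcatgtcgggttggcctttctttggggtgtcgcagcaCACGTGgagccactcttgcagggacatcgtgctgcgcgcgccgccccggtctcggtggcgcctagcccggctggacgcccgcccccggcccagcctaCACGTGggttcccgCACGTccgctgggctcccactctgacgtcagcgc
Pdk1: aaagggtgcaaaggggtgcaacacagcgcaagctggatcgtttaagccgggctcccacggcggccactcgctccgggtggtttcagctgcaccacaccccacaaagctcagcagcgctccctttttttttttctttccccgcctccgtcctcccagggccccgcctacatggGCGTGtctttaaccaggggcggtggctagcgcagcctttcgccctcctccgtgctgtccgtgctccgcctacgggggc

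Ldha, the lactate dehydrogenase subunit that turns pyruvate to lactate, held 5 matches between 145 and 34 bases before the start, counting CACGTG once on each strand. In Hk2 there were 2, beginning 226 and 52 bases before the start. Hk3, lower in every knockdown library, held 1, as did Pdk1, higher in every knockdown library. The other members apart between groups are not shown, and each core is counted in the window of the gene that held most. Among those lower after knockdown, Hk1 and Pdha1 each held 3 GCGTG. Pfkfb3 held 2 ACGTG and 1 GCGTG, and Aldoa 1 ACGTG. Pgk1, higher after knockdown, held 2 ACGTG.

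Promoter entries matched 38 of the 41 members, in 53 windows. Either core was present in 43 windows (81.1%), against 38.6% of all 32851 RefSeq windows of the same length. ACGTG was in 41.5% of member windows against 16.6% of all, and GCGTG in 58.5% against 28.2%. CACGTG, the E-box bound by MYC and MLXIPL family factors, overlaps ACGTG and was in 11.3% against 6.02%. Member windows had a median GC content of 60.4% against 52.4% for all windows, and its part in these shares was not tested. All windows came from 27025 genes, more than the 12327 rows of the deposited table, so many had no measured RNA here. Some members were listed because they are HIF targets. The part of either in these shares was not tested. The 35 member genes with either core had a median log2 fold change of −0.01, of which 13 were above control. The 3 without it, Gpi1, Rpe and Tpi1, had a median of 0.04. A match describes the letters in the window only.

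Glucose enters these cells through SLC2A transporters and lactate leaves through SLC16A transporters. None of the 5 was called, and their summed level was 88.6 ± 2.15 FPKM in the control libraries against 84.9 ± 1.62 FPKM in the knockdown libraries (mean ± SD of 3 libraries each), 95.8% of control. The sums did not overlap, although the lowest control (86.3 FPKM) and the highest knockdown library (86.1 FPKM) were nearly equal. Slc2a1, which encodes the main glucose transporter GLUT1, had the highest level and the smallest p of the role. Its values were 34.1, 32.5 and 32.8 FPKM in the control libraries against 32.7, 29.6 and 30.1 FPKM in the knockdown libraries. The first knockdown library lay among the controls while the other 2 lay below all of them (log2 fold change −0.10, 95% interval −0.22 to 0.01, limma, Benjamini-Hochberg adjusted p = 0.479).

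Slc2a6, a lysosomal hexose transporter of macrophages, was at 19.1 ± 0.761 FPKM in the control libraries against 18.6 ± 1.2 FPKM in the knockdown libraries. Slc2a3, the neuronal-type transporter GLUT3, was barely present at 0.856 ± 0.210 and 0.987 ± 0.0517 FPKM, with a mean coverage as low as 3.69 per transcript base. Slc16a3, which encodes the lactate exporter MCT4, stood at 19.8 ± 1.25 and 18.6 ± 0.583 FPKM. Slc16a1, the related carrier MCT1, stood at 15.8 ± 0.548 and 16.0 ± 0.475 FPKM, so MCT4 RNA made up 55.6% of the pair in the controls and 53.7% after knockdown.

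Of the 12 rows from glucose to triose phosphates, 4 had an unadjusted p under 0.05 (33.3%), against 11.9% of all members and 11.3% of all genes. The role was not tested as a set. Hk3 and Hk1 were lower and Hk2 higher in all knockdown libraries, and Pfkfb3, which makes the activator of phosphofructokinase, had the largest fold change of all members. None of the 12 rows was called. The role summed to 531 ± 12.9 FPKM in the control libraries against 508 ± 4.64 FPKM in the knockdown libraries (95.7% of control, mean ± SD of 3 libraries each), and the 3 knockdown sums lay below the 3 control sums. Aldoa (means of 229.8 and 219.5 FPKM) and Hk3 (94.3 and 84.4 FPKM) had the largest differences in FPKM, so the sum mostly restates these rows.

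Hexokinases trap glucose in the cell by phosphorylation. Hk3, the hexokinase typical of myeloid cells (chr13:55005985-55021385, GRCm38), stood at 98.0, 91.2 and 93.5 FPKM in the control libraries against 84.5, 84.2 and 84.3 FPKM in the knockdown libraries. All 3 knockdown libraries were below all controls, and they differed from each other by less than the controls did. Its mean was 89.5% of control (log2 fold change −0.16, 95% interval −0.24 to −0.07, limma, Benjamini-Hochberg adjusted p = 0.283), and the adjusted p stayed between 0.244 and 0.514 over all alternatives.

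Hk1, the broadly expressed isozyme that docks on mitochondria (chr10:62268855-62379908), measured 18.4, 21.8 and 18.7 FPKM in the controls. The knockdown libraries had 17.0, 16.4 and 17.2 FPKM. Control 2 was the highest of all, and the groups did not overlap. The log2 fold change was −0.20 (95% interval −0.36 to −0.04, limma, Benjamini-Hochberg adjusted p = 0.360), and −0.13 without control 2.

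Hk2, the inducible isozyme and a known HIF target whose promoter is shown above (gene at chr6:82725025-82774454), measured 22.4, 22.9 and 24.1 FPKM in the controls. The knockdown libraries had 27.0, 24.4 and 25.5 FPKM. The gap between the highest control and the lowest knockdown library was small, and the means were 23.1 ± 0.90 and 25.6 ± 1.29 FPKM. The log2 fold change was 0.14 (95% interval 0.02 to 0.26, limma, Benjamini-Hochberg adjusted p = 0.379).

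Within the hexokinase family the order of levels was Hk3, Hk2, Hk1 in every library. Hk2 made up 16.1%, 16.9% and 17.7% of hexokinase FPKM in the control libraries against 21%, 19.5% and 20.1% in the knockdown libraries, with no overlap. Hk3 made up 68.8 ± 1.77% in the controls and 66.5 ± 0.786% after knockdown, and these groups overlapped. Hk1 made up 14.3 ± 1.5% and 13.3 ± 0.225%. These shares were not tested.

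Pfkfb3 and Pfkfb4 encode bifunctional enzymes that set the level of the sugar phosphate that activates phosphofructokinase. Pfkfb3 (chr2:11471433-11554077) measured 8.97, 6.32 and 5.64 FPKM in the control libraries against 4.94, 4.37 and 4.89 FPKM in the knockdown libraries. The groups did not overlap, and control 1 was the highest by a wide margin. The mean was 67.9% of control (log2 fold change −0.46, 95% interval −0.79 to −0.12, limma, Benjamini-Hochberg adjusted p = 0.353). Without control 1 the log2 fold change was −0.28 and without control 3 it was −0.58. Pfkfb4 stood at 3.39 ± 0.165 and 3.37 ± 0.131 FPKM, so Pfkfb3 made up 66.8 ± 4.23% of the pair in the controls and 58.4 ± 0.836% in the knockdown libraries, without overlap.

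**Figure D2:**
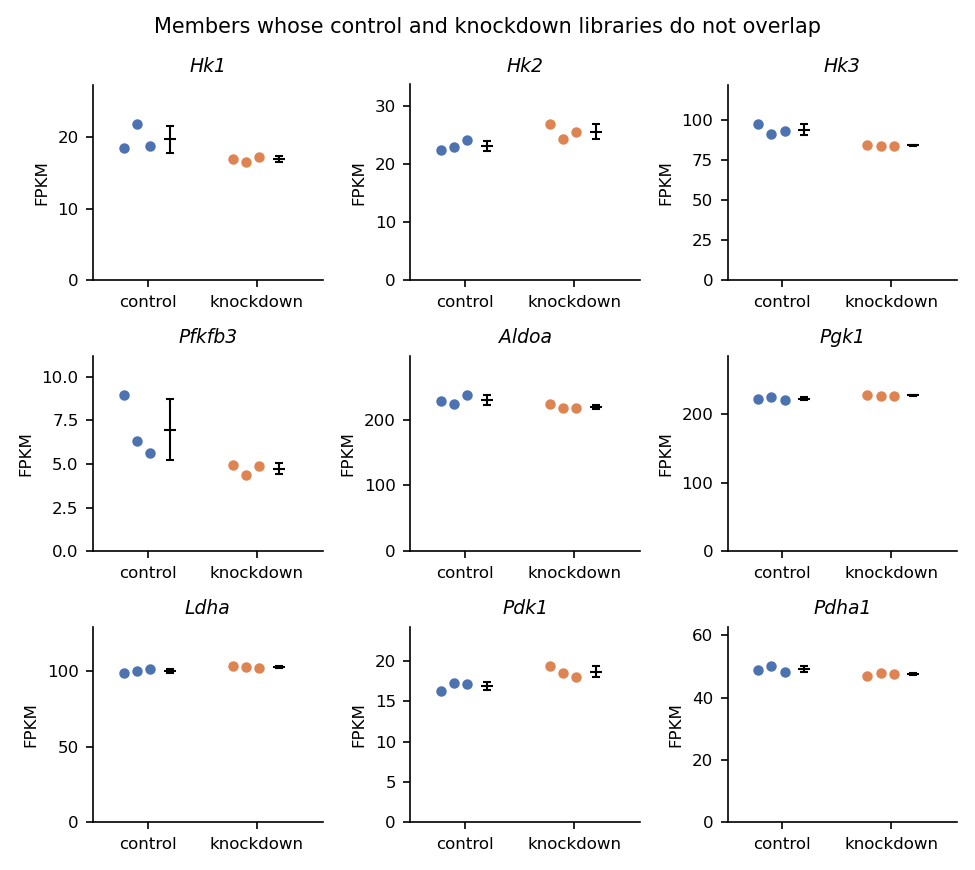
FPKM (y axis, from 0) of the 9 members whose control and knockdown libraries do not overlap, 1 point per library, with mean and SD (bars, n = 3). Relative to the control mean, Pfkfb3 shows the widest gap, while Pgk1, Ldha, Aldoa and Pdha1 differ by under 5%.

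Phosphofructokinase, the committed step, showed no such split. Pfkp, the platelet-type subunit, was the most abundant at 35.2 ± 0.787 FPKM in the control libraries against 34.9 ± 1.5 FPKM after knockdown. Pfkm, the muscle type, was at 19.1 ± 0.686 and 18.9 ± 0.551 FPKM, and Pfkl, the liver type, at 10.8 ± 0.601 and 11 ± 0.403 FPKM. Pfkp made up 54.1% of the family in the controls and 53.9% after knockdown. Gpi1, the isomerase between hexokinase and phosphofructokinase, was at 59.9 ± 2.35 and 61.8 ± 1.78 FPKM.

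Aldolase splits fructose bisphosphate into triose phosphates, and Aldoa had the highest level of this role. It measured 228, 223 and 238 FPKM in the control libraries against 223, 218 and 218 FPKM in the knockdown libraries. The second control and the first knockdown library were separated by under 1 FPKM, so the groups barely failed to overlap (log2 fold change −0.07, 95% interval −0.15 to 0.02, limma, Benjamini-Hochberg adjusted p = 0.530). The second Aldoa identifier, a short transcript beside the main gene, was at 1.38 ± 0.335 and 1.30 ± 0.215 FPKM. Aldoc, the brain-type aldolase, was at 27.0 ± 1.97 and 25.6 ± 0.793 FPKM, and Aldoa made up 89.5% and 89.6% of the pair.

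**Figure D3:**
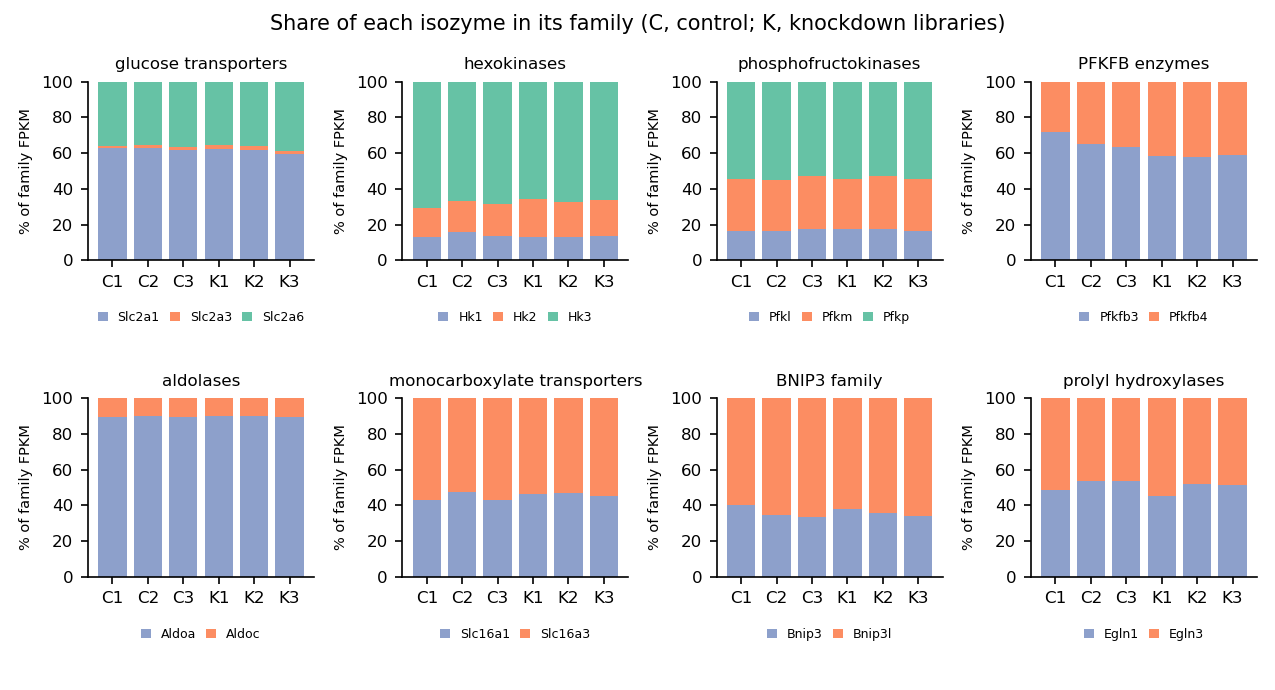
Share of each isozyme in the summed FPKM of its family (y axis, percent) in each control (C1 to C3) and knockdown (K1 to K3) library. The Hk2 band is wider and the Pfkfb3 band narrower in all 3 knockdown libraries, while phosphofructokinase and aldolase shares are nearly level.

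The steps from triose phosphates to lactate carried the highest summed level of the pathway. The 7 enzymes summed to 1098 ± 13.8 FPKM in the control libraries against 1094 ± 14 FPKM in the knockdown libraries (99.6% of control, mean ± SD of 3 libraries each). None was called, with adjusted p of 0.628 or more. Pkm, pyruvate kinase, was the most abundant of all members at 258, 243 and 258 FPKM in the control libraries against 241, 248 and 247 FPKM in the knockdown libraries, and control 2 lay among the knockdown values (log2 fold change −0.04, 95% interval −0.13 to 0.05, and −0.07 without control 2).

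Pgk1, the first ATP-making step, measured 221, 224 and 220 FPKM in the control libraries against 227, 226 and 226 FPKM in the knockdown libraries. All knockdown libraries were above all controls, with a mean of 102.3% of control (log2 fold change 0.03, 95% interval −0.04 to 0.10, limma, Benjamini-Hochberg adjusted p = 0.713). Ldha, whose promoter is shown above, measured 98.5, 100.1 and 101.7 FPKM in the control libraries against 103.6, 102.6 and 102.2 FPKM in the knockdown libraries. The groups were apart by less than 1 FPKM (log2 fold change 0.04, 95% interval −0.04 to 0.11, limma, Benjamini-Hochberg adjusted p = 0.670).

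Gapdh, often used as a reference gene, had the smallest p of the role at 92.4, 96.5 and 97.8 FPKM in the control libraries against 88.5, 91.6 and 95.4 FPKM in the knockdown libraries. The groups overlapped (log2 fold change −0.06, 95% interval −0.16 to 0.04, limma, Benjamini-Hochberg adjusted p = 0.628), and the log2 fold change ran from −0.08 without knockdown 3 to −0.03 without knockdown 1. Tpi1, triose phosphate isomerase, was at 68.8 ± 1.2 FPKM in the control libraries against 73.1 ± 6.42 FPKM after knockdown, where knockdown 3 reached 80.3 FPKM, and the log2 fold change was 0.01 without that library against 0.08 with it. Pgam1 was at 186.5 ± 5.77 and 184.6 ± 0.758 FPKM, and the enolase Eno1 at 172 ± 3.78 and 169 ± 2.45 FPKM. How reads were divided between Eno1 and its copy Eno1b, or between Gapdh and its copies, is uncertain, and Pkm shares exon bases with Gm49759. Aldoa, Pgk1, Pgam1 and Eno1 followed Pkm in level, and Aldoa (230 ± 7.28 FPKM) and Pgk1 (222 ± 2.48 FPKM) differed by little more than their spread in the controls.

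The pentose phosphate enzymes overlapped between the groups, and none was called. The 7 genes summed to 278 ± 5.35 FPKM in the control libraries against 276 ± 10.6 FPKM after knockdown (mean ± SD of 3 libraries each), 4 lay above control and 3 below, and no pair of groups was apart. G6pdx, the NADPH-making entry enzyme, had the highest level at 72.5, 69.2 and 73.4 FPKM in the control libraries against 72.3, 71.8 and 76.1 FPKM in the knockdown libraries. The groups overlapped, with knockdown 3 the highest library (log2 fold change 0.03, 95% interval −0.06 to 0.13, and 0.01 without that library or without control 2). Pgd, the second NADPH-making step, was at 61.8 ± 0.830 and 62.3 ± 1.83 FPKM, and its 95% interval reached no further than −0.07 to 0.10. G6pdx shares exon bases with Ikbkg on the other strand, as Pfkp does with Pitrm1.

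Tkt, transketolase, had the smallest p of this role at 49.4, 41.7 and 51.5 FPKM in the control libraries against 41.5, 44.1 and 45.3 FPKM in the knockdown libraries. Control 2 lay among the knockdown values (log2 fold change −0.12, limma, Benjamini-Hochberg adjusted p = 0.601), and the log2 fold change was −0.21 without it and −0.06 without control 3. Taldo1, transaldolase, was at 59.7 ± 0.669 and 60.9 ± 2.62 FPKM. Rpia, ribose phosphate isomerase, was low at 1.71 ± 0.202 and 1.68 ± 0.0655 FPKM.

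Rpe and Pgls each turned on the second knockdown library. Rpe, the ribulose phosphate epimerase, measured 19.1, 21.6 and 17.7 FPKM in the control libraries against 22.0, 8.59 and 21.1 FPKM in the knockdown libraries. Only knockdown 2 was below the controls, and the log2 fold change of −0.27 (95% interval −1.01 to 0.48) became 0.14 without it. Its exons share 558 bases with Kansl1l on the other strand. Pgls, the lactonase, measured 15.6, 16.3 and 15.7 FPKM in the control libraries against 15.1, 20.5 and 15.5 FPKM in the knockdown libraries, and its log2 fold change of 0.08 became −0.05 without knockdown 2.

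Inside mitochondria pyruvate dehydrogenase turns pyruvate into acetyl-CoA, and PDK kinases switch it off. Pdk1, a HIF target, was higher in every knockdown library and Pdha1, the catalytic subunit it phosphorylates, lower in every one, and neither was called. Pdk1 (chr2:71873224-71903858) measured 16.3, 17.3 and 17.1 FPKM in the control libraries against 19.4, 18.5 and 18.1 FPKM in the knockdown libraries. The mean was 110.4% of control (log2 fold change 0.14, 95% interval 0.03 to 0.24, limma, Benjamini-Hochberg adjusted p = 0.360). Pdha1 measured 48.8, 50.3 and 48.4 FPKM in the control libraries against 47.1, 47.9 and 47.6 FPKM in the knockdown libraries. These were apart by under 1 FPKM (log2 fold change −0.05, 95% interval −0.13 to 0.03, limma, Benjamini-Hochberg adjusted p = 0.615). Exons of Pdha1 share 603 bases with Map3k15 on the other strand, at a mean of 11.8 FPKM.

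HIF and its sensors overlapped between the groups, and none of the 3 was called. Hif1a, the oxygen-regulated subunit whose control is mostly at the protein, measured 33.0, 34.3 and 31.0 FPKM in the control libraries against 32.8, 32.2 and 31.8 FPKM in the knockdown libraries. The knockdown values lay inside the control range (log2 fold change −0.02, 95% interval −0.13 to 0.09). The log2 fold change was 0.01 without control 2 and −0.06 without control 3. Egln3, a prolyl hydroxylase that HIF itself raises, measured 12.1, 11.3 and 11.5 FPKM in the control libraries against 14.2, 11.5 and 12 FPKM in the knockdown libraries. Knockdown 1 alone was above the controls, and the log2 fold change of 0.10 was 0.01 without it. Egln1, the main prolyl hydroxylase, was at 12.6 ± 0.996 and 12.3 ± 0.396 FPKM.

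Other HIF targets lay on both sides of control, 4 of 6 above it, with a summed level of 136 ± 9.38 FPKM in the control libraries against 144 ± 5.02 FPKM after knockdown (mean ± SD of 3 libraries each). No member of the role had groups apart or was called. Bnip3, a mitophagy receptor, measured 22.9, 25.3 and 21.4 FPKM in the control libraries against 28.5, 25.0 and 24.6 FPKM in the knockdown libraries. Control 2 overlapped the knockdown values (log2 fold change 0.16, 95% interval −0.02 to 0.34, limma, Benjamini-Hochberg adjusted p = 0.489), and the log2 fold change was 0.10 without knockdown 1. Bnip3l, its relative, measured 33.8, 48.1 and 42.7 FPKM in the control libraries against 46.5, 45.2 and 48.2 FPKM in the knockdown libraries. Controls 1 and 3 were below all knockdown libraries and control 2 among them. The log2 fold change of 0.18 was 0.04 without control 1 and 0.29 without control 2.

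Vegfa, the angiogenic growth factor, was at 12.5 ± 1.60 FPKM in the control libraries against 11 ± 1.21 FPKM after knockdown (log2 fold change −0.17, and −0.07 without control 3). Ero1l, the oxidase of the endoplasmic reticulum, was at 32.0 ± 1.87 and 34.2 ± 2.22 FPKM. P4ha1, a collagen prolyl hydroxylase, was at 21.7 ± 0.369 and 21 ± 1.04 FPKM. Ankrd37 was at 5.39 ± 0.119 and 5.54 ± 0.686 FPKM. All 4 overlapped between groups.

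Fold changes in these libraries moved with the base composition of the transcript over all genes, and less clearly in the members. Spearman's rho between the log2 fold change and the GC content of the longest transcript was −0.30 across 12198 genes. Across the 42 member rows it was −0.27. Pearson's coefficient was −0.24 across all genes and −0.17 across the members. These are described without a test because genes share libraries and are not independent replicates. Of 11 member rows at 56% GC or more, 2 were above control, with a median of −0.04, and of 10 under 47% GC, 5 were above control, with a median of 0.00. Removing a smooth curve over GC and length from each library took rho across members to −0.08, a fall that such a removal is built to give. Under that correction Hk3 had a log2 fold change of −0.13, Hk1 of −0.17, Hk2 of 0.16, Pdk1 of 0.13, Pfkfb3 of −0.45 and Bnip3 of 0.10. Pdha1 then had an unadjusted p of 0.0289 and Hk1 one of 0.0528, and none of the 42 rows was called. Aldoa, Pgk1 and Ldha, apart between groups as deposited, overlapped after the correction. Hif1a then lay lower in every knockdown library (log2 fold change −0.06, unadjusted p 0.0589) and Tpi1 higher in every one (0.09, unadjusted p 0.125).

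**Figure D4:**
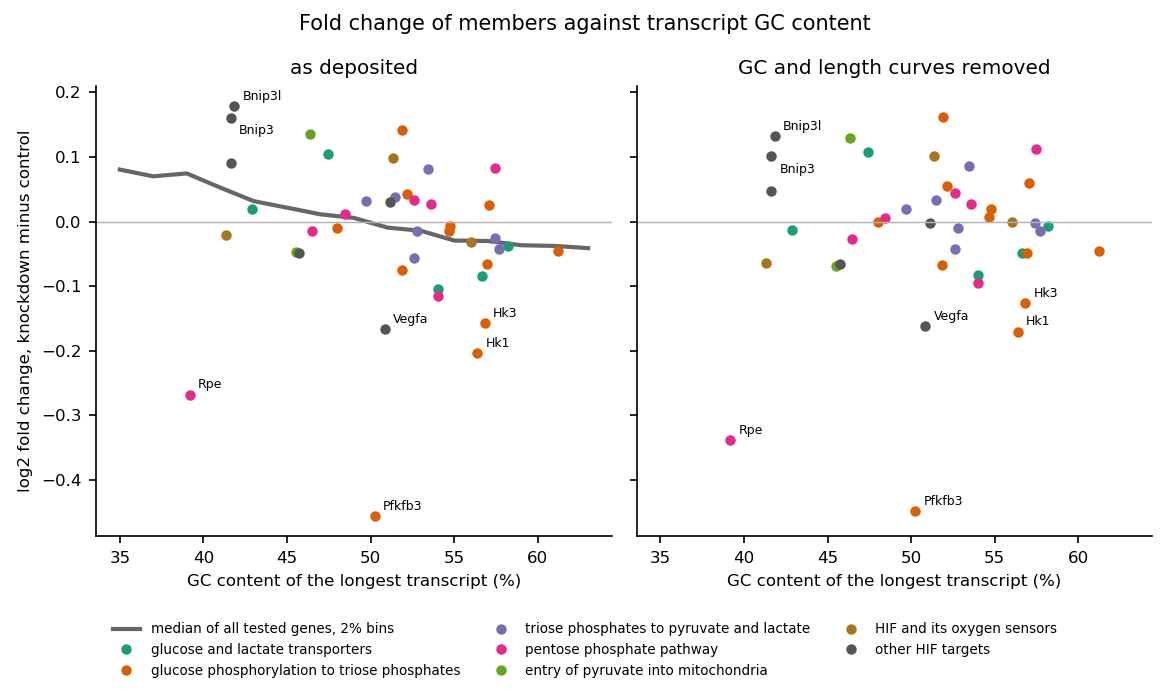
Log2 fold change of each member row (y axis, knockdown minus control) against the GC content of its longest transcript (x axis, percent), as deposited on the left and after removal of GC and length curves on the right. The grey line is the median of all tested genes in bins of 2% GC. The line declines with GC, and Pfkfb3 is the lowest point in both panels.

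The other genes of the pathways, from lists that excluded the members, also held 0 called genes. For the directions given below, 6476 of all 12222 genes tested were above control. Of 37 other glycolysis genes 19 were measured, with 14 above control and a median of 0.04. The 2 with the smallest p were Slc2a9, a urate and hexose transporter, at 3.72 ± 0.259 FPKM in the control libraries against 2.84 ± 0.217 FPKM after knockdown (log2 fold change −0.30, limma, Benjamini-Hochberg adjusted p = 0.273), and Eno3, muscle enolase, at 24.3 ± 0.739 and 27.8 ± 2.24 FPKM (0.18, adjusted p = 0.361).

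Of 20 other pentose phosphate and NADPH genes 15 were measured, with 10 above control and a median of 0.08. Aldh1l2, a mitochondrial folate enzyme that makes NADPH, was at 9.47 ± 0.0300 and 11.5 ± 0.621 FPKM (log2 fold change 0.25, limma, Benjamini-Hochberg adjusted p = 0.241). Idh1, the cytosolic NADPH-making isocitrate dehydrogenase, measured 14.4, 23.0 and 21.2 FPKM in the control libraries against 24.6, 23.7 and 25.4 FPKM in the knockdown libraries, where control 1 stood low (log2 fold change 0.34, limma, Benjamini-Hochberg adjusted p = 0.467).

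Around pyruvate dehydrogenase 11 of 14 listed genes were measured, 8 above control, with a median of 0.05. Mpc1, a subunit of the mitochondrial pyruvate carrier, was at 18.0 ± 0.713 and 21.5 ± 1.47 FPKM (log2 fold change 0.24, limma, Benjamini-Hochberg adjusted p = 0.287), and Pdp1, the phosphatase opposing PDK1, at 2.16 ± 0.169 and 2.70 ± 0.164 FPKM (0.23, adjusted p = 0.327). Of 18 other HIF pathway genes 16 were measured, 10 above control, with a median of 0.04, led by Eloc, a subunit of the VHL ligase complex (log2 fold change 0.20, limma, Benjamini-Hochberg adjusted p = 0.307), and Siah1a, a ligase for prolyl hydroxylases (0.20, adjusted p = 0.373).

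Of 41 other HIF targets 30 were measured, 15 on each side of control, with a median of 0.00. Hmox1, heme oxygenase, was at 124 ± 1.36 FPKM in the control libraries against 110 ± 3.40 FPKM after knockdown (log2 fold change −0.16, limma, Benjamini-Hochberg adjusted p = 0.261), and Cxcr4, a chemokine receptor, at 15.8 ± 0.391 and 18.7 ± 1.37 FPKM (0.22, adjusted p = 0.292). The list of regulators of glycolysis genes was the one mostly below control, with 5 of 21 measured genes above and a median of −0.04. It mixed transcription factors with signalling genes such as Mtor, Tsc1, Akt1 and Prkaa1, so it does not describe transcription factors alone. Txnip, an inhibitor of glucose uptake, measured 200, 221 and 198 FPKM in the control libraries against 176, 161 and 180 FPKM in the knockdown libraries, without overlap (log2 fold change −0.26, limma, Benjamini-Hochberg adjusted p = 0.269). Mlxip, the glucose-sensing factor that drives Txnip, was at 9.55 ± 0.653 and 7.56 ± 1.03 FPKM (log2 fold change −0.31, limma, Benjamini-Hochberg adjusted p = 0.346).

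**Figure D5:**
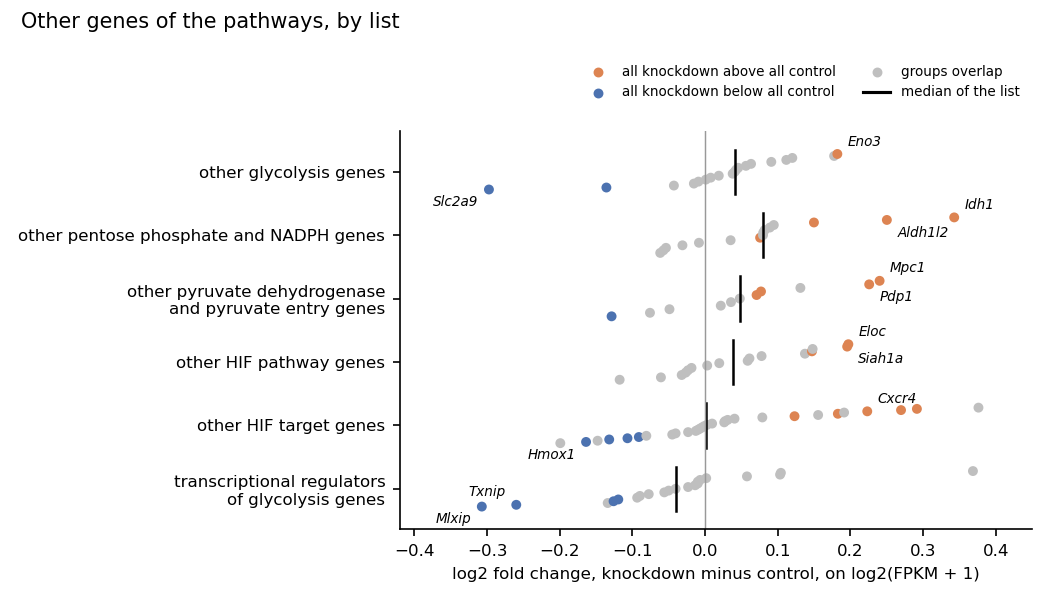
Log2 fold change (x axis, knockdown minus control) of each measured gene in 6 lists of other pathway genes, with the list median as a bar. Orange and blue points have groups that do not overlap. The list medians lie between −0.04 and 0.08, and the named genes are the 2 with the smallest p in each list.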

How the data were processed

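Per the labels' protocols, TRIzol RNA from 3 GCH1-KD and 3 control samples was freed of ribosomal RNA and used for stranded libraries. The deposited table states no unit. Its values behave as FPKM made by the authors: in genes with 1 transcript the value times transcript length lay within 0.1 of a whole step for 74.9% to 76.4% of 1826 to 1849 genes per library, against 20% by chance, and that step gave the aligned sequence and the coverage. Counts were not used, so the depth is an estimate. HISAT2, StringTie and edgeR are listed, without versions, in the submitters' processing notes, with the human build hg38, although the identifiers are mouse. Annotation release and strand setting: not given in the sources used here. In every row the higher group mean was at least 0.501 FPKM.

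Identifiers were matched without version to GENCODE M21 (GRCm38), which held 12300 of 12327. limma 3.58.1 in R 4.3.3, with a mean-variance trend, was run on log2(FPKM + 1) for rows that reached 0.5 FPKM in 3 or more of 6 libraries, and tested on simulated data. The pseudocount shrinks fold changes of low genes. In bulk RNA, fewer cells and less RNA per cell cannot be told apart. The 17 alternatives were a replicate block, 6 left-out libraries, quantile normalization, scaling by median of ratios, no trend, robust moderation, a pseudocount of 0.1 or 0.5, no filter, a filter at a mean of 5 FPKM, a GC and length correction (loess span 0.3), and that correction with the block. Every measured member is reported under its role, with values per library for rows whose groups do not overlap and for the smallest p and highest level in each role. Of each related list the 2 genes with the smallest p are named. The members and lists were chosen with earlier results of these data known. Copies were sought with blastn 2.17.0 at 95% identity over 300 bases, and other steps used Python 3.11.15, numpy 2.4.6, pandas 2.3.3 and scipy 1.17.1.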

Additional observations from a re-analysis of the deposited data

How the results depend on the processing

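None of the member rows was called under any of the 17 alternatives, and the lowest adjusted p among them was 0.244 (Hk3, without control 2, limma with Benjamini-Hochberg adjustment). Of 710 member values compared, 32 changed sign, 24 of them when a library was left out. Hk1, Hk2, Hk3, Pfkfb3 and Pdk1 were not among these. Their groups do not overlap, so leaving out 1 library could not change their sign, and this says nothing about their stability. The replicate block, no filter, no trend and robust moderation leave every fold change as it was, so no sign could change there either. Over all genes, 10 were called as reported, 0 with a replicate block and 0 with the replicate block and GC and length correction together, where 1330 and 1417 genes had an unadjusted p under 0.05. Whether libraries of the same number were paired is not known from the labels. Same-numbered libraries correlated at 0.095, 0.059 and 0.094, and each correlated best with its own number. These are correlations of deviations from the group means. Within a group such deviations are linked, so the matches are not independent and cannot settle whether libraries were paired. With the block, in either form, Gch1 itself was not called, so the absence of called members there says little. Leaving out 1 library gave 6 to 18 called genes (6 without knockdown 2 or 3, 18 without control 2). It gave 3 to 9 members at an unadjusted p under 0.05. The 3 came without control 1, when 8.74% of all genes had one, and the 9 without control 2, when 13.6% did. Rows with groups apart numbered 11 to 21. The 11 came without control 3, knockdown 2 or knockdown 3, when 27.4% to 28.6% of all genes were apart. The 21 came without control 2, when 34% of all genes were apart. With 1 library left out, the median of the members ran from −0.0157 (without knockdown 3) to 0.00828 (without control 1), and it was −0.0215 with median-of-ratios scaling, the lowest of all alternatives. Slc2a3, Rpia and the second Aldoa row, each under 2 FPKM, are limited by depth.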

Other observations

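Near-identical copies of Eno1 and Gapdh had rows of their own. Eno1b, 99.5% identical to Eno1, had control and knockdown means of 35.2 and 37.8 FPKM. Gm3839 and Gm10358, copies of Gapdh, were at 1.48 and 2.02 FPKM in the control libraries against 1.64 and 2.09 FPKM in the knockdown libraries. The split of reads between Eno1 and Eno1b, and between Gapdh and its copies, is uncertain. Exons on the opposite strand overlap 748 bases of Pfkp (Pitrm1) and 418 bases of G6pdx (Ikbkg), and 767 bases of Pkm on the same strand belong also to Gm49759.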
